A study of Mus musculus with 4 samples.

Results

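The open chromatin regions (OCRs) at the genes of the NR4A and EGR transcription factors were described in lymph node (LN) Treg cells of WT and Il2ramut/mut mice. The genes were Nr4a1, Nr4a2, Nr4a3, Egr1, Egr2 and Egr3, 2 families of factors that T cells induce on activation. Their OCRs were all peaks of the 4 deposited lists that overlapped the gene body (GENCODE, GRCm38) or the 20 kb on either side of it, and peaks that overlapped by at least 1 bp were merged into 1 region. This gave 56 regions out of 272233 in the whole series, of which Nr4a1 had 16, Nr4a2 8, Nr4a3 10, Egr1 6, Egr2 5 and Egr3 11. The assay was ATAC-seq, in which the Tn5 transposase cuts and tags accessible DNA, and a peak is a stretch where the tagged reads pile up over the background. Each of the 4 libraries came from 50000 Treg cells, enriched from LNs by negative selection of CD4+ T cells and sorted as RFP+. The WT group was 2 libraries, from 2 mice per the labels, with the intact Il2ra gene, and the Il2ramut/mut group was 2 libraries, from 2 mice homozygous for a point mutation in Il2ra, which encodes the IL-2 receptor alpha chain (CD25). All were unstimulated C57BL/6 females aged 6 to 8 weeks that carried Foxp3Rfp/Rfp, a reporter that marks Foxp3-expressing cells with red fluorescent protein. The mutation arose spontaneously in a Ccr2-/- colony and was bred away from the Ccr2 deletion, it was present in all cells of the mice and not only in Treg cells, and it lowers IL-2 signals rather than removing them.

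The NR4A proteins are orphan nuclear receptors that act without a known circulating ligand and whose genes are switched on within minutes of T cell receptor (TCR) stimulation. In Treg cells they are known to bind the Foxp3 locus and to help keep Foxp3 expressed. The EGR proteins are zinc finger factors that bind GC-rich DNA, are induced through the MAP kinase, SRF and ELK pathway, and, in the case of Egr2 and Egr3, are known for restraining T cell activation through genes such as Cblb. IL-2 acts on Treg cells through STAT5, and the IL-2 receptor alpha chain is part of the receptor form that binds IL-2 tightly. The question addressed was whether the accessibility of these activation-induced genes differed between Treg cells that received full or reduced IL-2 signals.

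The 4 lists held 112569 to 142732 peaks. A peak's fold enrichment is the reads at its summit over the library's background, with 1 read added to both. The fold enrichments of 100% of the peaks were whole numbers of reads within 0.02, a tolerance that was widened slightly as the reads rose. The size of 1 read was fitted to the same values. The background was 0.974 to 1.23 reads, and the faintest peak of a list had 5 or 6 reads. The total depth of the libraries is unknown. WT replicate 2 had the highest fold enrichment over the regions called in all 4 libraries, with a median of 10.6 against 7.6 to 8.75 in the others. Ranks are therefore given beside reads: the percentile of a peak's −log10 p among all peaks of its library, which moves in steps because a peak holds a whole number of reads. Of the 7 Treg and CD4 T cell markers, Foxp3, Il2ra, Ikzf2, Ctla4, Cd4, Cd3e and Cd28, 7 had a peak within 1 kb of a start site in all 4 libraries. Of 12 markers of other cells, Cd8b1, Col1a1 and Pecam1 were open in 4 libraries, Cd14 in 2, and Cd8a, Ms4a1, Cd79a, Lyz2, Itgam, Csf1r, Ncr1 and Klrb1c in 0. The percentiles summed over these 12 starts were 266 and 331 in WT and 248 and 333 in Il2ramut/mut replicates 1 and 2.

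Sequences are shown first for the start sites and the OCRs on which the description turns, read 5′ to 3′ with searched words in capitals. The 250 bases before the start site came from RefSeq (GRCm38), in which promoters of Nr4a1, Nr4a2, Nr4a3 and Egr2 were matched and printed. That of Nr4a3 was cut to the 98 bases before the earlier GENCODE start, and no Egr1 or Egr3 promoter is printed. Capitals mark the cAMP response element (CRE) core TGACG or its reverse complement in each of them, the EGR site GCGNGGGCG in Nr4a1 and Nr4a2, a CTCF site in Nr4a1 and a CArG box, the SRF binding element, in Egr2.
Nr4a1 promoter (chr15:101266596-101266845, plus strand): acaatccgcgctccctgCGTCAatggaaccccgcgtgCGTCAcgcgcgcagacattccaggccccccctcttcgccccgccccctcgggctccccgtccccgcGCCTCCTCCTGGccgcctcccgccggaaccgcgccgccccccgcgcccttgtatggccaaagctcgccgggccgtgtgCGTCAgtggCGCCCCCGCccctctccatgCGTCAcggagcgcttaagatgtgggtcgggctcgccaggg
Nr4a2 promoter (chr2:57124004-57124253, minus strand): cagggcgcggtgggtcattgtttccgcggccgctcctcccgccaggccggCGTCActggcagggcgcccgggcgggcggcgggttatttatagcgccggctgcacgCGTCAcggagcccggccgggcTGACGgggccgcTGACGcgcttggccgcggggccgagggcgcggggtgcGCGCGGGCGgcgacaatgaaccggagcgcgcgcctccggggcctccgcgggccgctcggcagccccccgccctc
Nr4a3 promoter (chr4:48045055-48045152, plus strand): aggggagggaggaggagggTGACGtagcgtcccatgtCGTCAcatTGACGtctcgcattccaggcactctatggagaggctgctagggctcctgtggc
Egr2 promoter (chr10:67537619-67537868, plus strand): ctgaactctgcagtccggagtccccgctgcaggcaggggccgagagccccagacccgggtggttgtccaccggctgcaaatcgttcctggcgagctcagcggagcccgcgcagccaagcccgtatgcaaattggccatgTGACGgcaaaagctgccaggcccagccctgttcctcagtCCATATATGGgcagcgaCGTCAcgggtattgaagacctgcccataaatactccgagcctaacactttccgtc

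The CRE core was searched for after the sequences had been seen, on both strands and with full CRE matches included. In the whole 300-base RefSeq window, 250 bases before to 50 after the start, the Nr4a1, Nr4a2 and Nr4a3 promoters held 4 cores each. At least 1 core was found in 20.8% and at least 4 in 0.231% (76) of all 32851 RefSeq promoters. The minimum of 4, like the word, was taken from the members themselves, so these shares are no test of how unusual the members are. The printed Egr2 promoter held 2 cores and 1 CArG box, and at least 1 of each was found in 0.244% of promoters. This pair of words was also picked after the sequences had been seen. Among the other RefSeq windows of Egr2, that from chr10:67535249 held neither word. The window from chr10:67537316 held a CArG box and no core. These matches are letters in a window and say nothing of binding.

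For the OCRs away from the printed promoters, the 200 bases centred on the highest summit were read from the GRCm38 genome on the plus strand. The highest OCRs of Nr4a1 and Nr4a3 outside start sites and the highest intergenic OCR of Egr3 are shown, followed by 3 NR4A regions on which the comparison of the genotypes turns, of which those at −25.9 and −16.5 kb of Nr4a1 held none of the words. Capitals mark the EGR site and the CRE core at −20.3 kb of Nr4a1, the STAT site TTCNNNGAA at −8.2 kb, CRE cores at −1.8 and −5.3 kb of Nr4a3, an NF-kappaB site and the RUNX site TGTGGTT at +29.9 kb and a RUNX site at −11.3 kb of Egr3.
Nr4a1 −20.3 kb (chr15:101246398-101246597, plus strand), the highest OCR of the 6 genes: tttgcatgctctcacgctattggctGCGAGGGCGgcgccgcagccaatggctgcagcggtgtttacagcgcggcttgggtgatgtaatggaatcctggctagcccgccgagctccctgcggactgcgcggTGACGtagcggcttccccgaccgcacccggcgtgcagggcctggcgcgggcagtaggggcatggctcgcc
Nr4a1 −8.2 kb (chr15:101258596-101258795, plus strand): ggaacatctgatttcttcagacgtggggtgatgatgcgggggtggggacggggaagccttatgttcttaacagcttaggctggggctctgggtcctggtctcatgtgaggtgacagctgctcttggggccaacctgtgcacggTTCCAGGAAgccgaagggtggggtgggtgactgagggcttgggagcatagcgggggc
Nr4a3 −1.8 kb (chr4:48043290-48043489, plus strand): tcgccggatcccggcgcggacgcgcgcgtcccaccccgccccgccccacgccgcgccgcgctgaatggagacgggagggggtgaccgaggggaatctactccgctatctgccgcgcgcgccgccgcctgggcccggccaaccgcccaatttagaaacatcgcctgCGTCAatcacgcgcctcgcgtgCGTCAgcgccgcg
Nr4a3 +29.9 kb (chr4:48074916-48075115, plus strand): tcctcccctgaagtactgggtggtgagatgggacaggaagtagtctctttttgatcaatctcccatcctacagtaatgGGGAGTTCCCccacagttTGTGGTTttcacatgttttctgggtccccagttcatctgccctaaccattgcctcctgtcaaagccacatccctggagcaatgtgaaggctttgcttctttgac
Egr3 −11.3 kb (chr14:70065778-70065977, plus strand): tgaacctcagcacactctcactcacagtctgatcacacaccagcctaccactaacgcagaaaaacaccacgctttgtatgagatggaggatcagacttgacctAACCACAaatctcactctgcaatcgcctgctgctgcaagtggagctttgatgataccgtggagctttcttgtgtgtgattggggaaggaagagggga
Nr4a3 −5.3 kb (chr4:48039748-48039947, plus strand), the largest difference between genotypes: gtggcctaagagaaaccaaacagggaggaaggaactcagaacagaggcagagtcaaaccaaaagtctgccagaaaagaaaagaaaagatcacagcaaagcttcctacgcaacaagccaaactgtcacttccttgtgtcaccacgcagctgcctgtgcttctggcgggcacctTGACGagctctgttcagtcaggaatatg
Nr4a1 −25.9 kb (chr15:101240854-101241053, plus strand), the next largest: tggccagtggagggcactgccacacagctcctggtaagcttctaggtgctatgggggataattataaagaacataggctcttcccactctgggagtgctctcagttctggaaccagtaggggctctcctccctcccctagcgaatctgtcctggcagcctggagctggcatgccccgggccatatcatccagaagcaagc
Nr4a1 −16.5 kb (chr15:101250217-101250416, plus strand), a peak in WT libraries only: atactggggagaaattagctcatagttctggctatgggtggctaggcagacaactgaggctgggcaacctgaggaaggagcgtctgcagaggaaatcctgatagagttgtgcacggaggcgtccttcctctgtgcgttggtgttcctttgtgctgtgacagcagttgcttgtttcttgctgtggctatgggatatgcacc

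Over the 29 regions called in all 4 libraries, a CRE core was in the summit window of 12, against 16.3% of the 38281 such windows on assembled chromosomes. That word was chosen after sequences of these same genes had been seen, so its count is a description and no test of enrichment. The EGR site was in 3 windows against 2.92%, the NF-kappaB site in 5 against 4.72%, and the CTCF site in 2 against 5.11%. The full CRE TGACGTCA was in 1 against 1.37%. The AP-1 site TGANTCA was in 2 against 7.96%, the ETS site CCGGAAG in 2 against 6.77%, the RUNX site in 2 against 7.85% and the NFAT site TGGAAA in 4 against 14.6%. The STAT site was in 1, at −8.2 kb of Nr4a1, against 5.91%. The CArG box was in 1, the Egr3 start site region at −0.4 kb, against 0.912%. The NBRE AAAGGTCA, the element that NR4A monomers bind, was in 0 against 1.11%, and the MEF2 site was in 0 against 0.36%. The median GC content of the windows was 57% at the 6 genes and 52% in all.

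The 6 genes were accessible in unstimulated LN Treg cells of both genotypes. Of the 56 regions, 29 were called in all 4 libraries, 5 in 3, 9 in 2 and 13 in 1. The share called in all 4 was 51.8%, against 14.1% of all regions of the series and 19.1% of the 158378 regions around protein-coding genes. It was 52.7% of the 74 regions at the AP-1 genes (Fos, Fosb, Fosl1, Fosl2, Jun, Junb, Jund, Batf and Batf3), another family of activation-induced factors. The share was also 44.1% of the 161 regions at the Treg and CD4 T cell markers. At the markers of other cells it was 49.2% of 65 regions, so a share of this size was not particular to activation-induced genes. Regions called in all 4 libraries had a median percentile of 92.8 at the 6 genes and 82.8 over the series, and a median width of 894 bp against 760 bp. The medians were 89.73 and 798 bp at the AP-1 genes and 85.57 and 791 bp at the Treg and CD4 T cell markers. They were 86.65 and 705.5 bp at the markers of other cells and 85.25 and 772 bp around protein-coding genes. Of the 29 regions at the 6 genes, 5 were start sites of other genes.

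**Figure D1:**
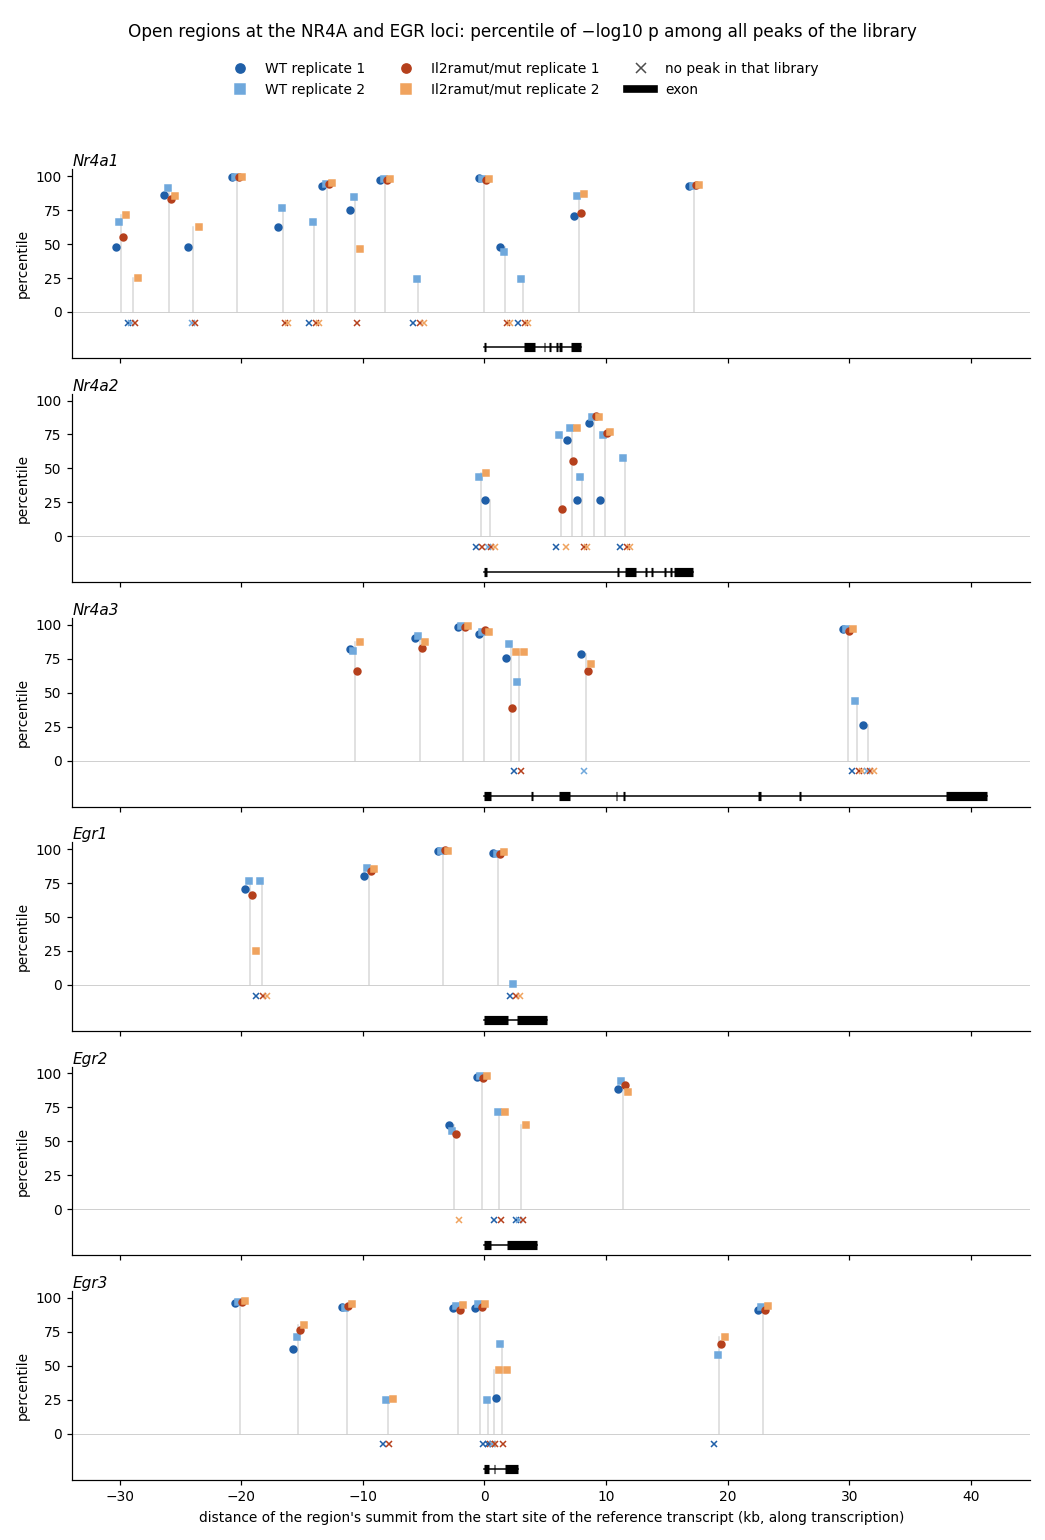
Percentile of the −log10 p of each peak among all peaks of its library (vertical axis) against the distance of the region's summit from the start site in kb (horizontal axis), for the 56 regions at the 6 genes. Circles and squares are replicates 1 and 2, blue is WT and orange-red is Il2ramut/mut, crosses below 0 mark a library without a peak, and black boxes are exons of the reference transcript. Regions near the top hold points of all 4 libraries, and the crosses gather at regions of low percentile.

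Nr4a1, which encodes Nur77, a widely used marker of TCR signaling, had 8 regions in all 4 libraries and ranked at the 96.4th percentile of the 21910 protein-coding genes in that number. Its start site lay in a region of 1788 bp (chr15:101266272-101268059) that also covered an exon of the reference transcript. The summit there had 84 and 92 reads in WT and 78 and 73 in Il2ramut/mut replicates 1 and 2. The highest OCR of all 6 genes was intergenic at −20.3 kb (chr15:101246034-101247520), with 106 and 148 reads in WT and 153 and 137 in Il2ramut/mut. It exceeded the start site in every library, and its percentiles lay between 99.3 and 99.5. An OCR at −8.2 kb (chr15:101257584-101259046), over an exon of an alternative Nr4a1 transcript, had 64, 94, 77 and 77 reads in WT replicates 1 and 2 and Il2ramut/mut replicates 1 and 2. The most upstream annotated start lay in another OCR at −12.9 kb, with 32, 53, 50 and 43 reads. A region at +17.3 kb was the start site of the neighbouring Atg101, an autophagy gene, with 32, 42, 43 and 35 reads.

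Nr4a2, which encodes Nurr1, was the least accessible of the 6 genes. The start of its reference transcript had no region in all 4 libraries: the nearest, at −0.3 kb, was a peak of 8 reads in WT replicate 2 and of 8 in Il2ramut/mut replicate 2. The called start was internal, at +9.0 kb (chr2:57114761-57115456) in intron 1 of the reference transcript, where shorter Nr4a2 transcripts begin. It had 15 and 26 reads in WT and 25 and 19 in Il2ramut/mut, so the genotypes overlapped. Its mean percentile of 86.7 was above the start sites of 59.1% of protein-coding genes, the lowest of the 6. The other regions in all 4 libraries were also in intron 1, at +7.2 kb with 10, 15, 10 and 12 reads and at +9.9 kb, over the start of another short Nr4a2 transcript, with 7, 12, 13 and 11 reads.

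Nr4a3, which encodes NOR1, had its start site in a region of 2623 bp (chr4:48044160-48046782) with 36 and 54 reads in WT and 62 and 42 in Il2ramut/mut. As at Nr4a1, an upstream OCR was higher: the summit at −1.8 kb (chr4:48042445-48043900) had 79 and 122 reads in WT and 106 and 103 in Il2ramut/mut, more than the start site in each library. The intron 7 region at +29.9 kb (chr4:48074684-48075340) was also above the start site in 3 of 4 libraries, with 57 and 81 reads in WT and 57 and 62 in Il2ramut/mut. The Nr4a3 window held no start site of another gene.

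Egr1, the EGR member most used as an immediate-early gene, had 4 regions in all 4 libraries. Its start site lay in a region of 2445 bp whose summit was in the gene at +1.2 kb, with 62 and 71 reads in WT and 70 and 80 in Il2ramut/mut. The OCR at −3.4 kb, of 2728 bp, had 83 and 121 reads in WT and 123 and 101 in Il2ramut/mut and was higher than the start site in every library. The region at −19.2 kb was the start site of the neighbouring Reep2, with 10, 13, 11 and 7 reads.

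Egr2 had 2 regions in all 4 libraries, the fewest of the 6 genes. The start site region of 2413 bp (chr10:67535842-67538254) had 68 and 100 reads in WT and 73 and 77 in Il2ramut/mut, above the start sites of 87.6% of protein-coding genes. The other, at +11.4 kb, was the start site of Ado, a thiol dioxygenase gene, with 22, 52, 34 and 17 reads in WT replicates 1 and 2 and Il2ramut/mut replicates 1 and 2. The replicates of each genotype lay apart there, and the genotypes overlapped. A start of an upstream Egr2 transcript at −2.5 kb was called in 3 libraries, with 9, 9 and 10 reads, and not in Il2ramut/mut replicate 2.

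Egr3 had 6 regions in all 4 libraries and ranked at the 92.4th percentile of protein-coding genes in that number. The start site region at −0.4 kb had 33 and 61 reads in WT and 41 and 49 in Il2ramut/mut. The upstream intergenic regions were of the same order, with 31, 49, 33 and 41 reads at −2.2 kb and 35, 41, 45 and 46 at −11.3 kb. The highest region, at −20.1 kb (chr14:70056831-70057759), was the start site of the unnamed gene Gm33524 and had 52, 76, 76 and 68 reads. The region at +22.9 kb was the start site of Bin3, with 28, 47, 32 and 40 reads.

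**Figure D2:**
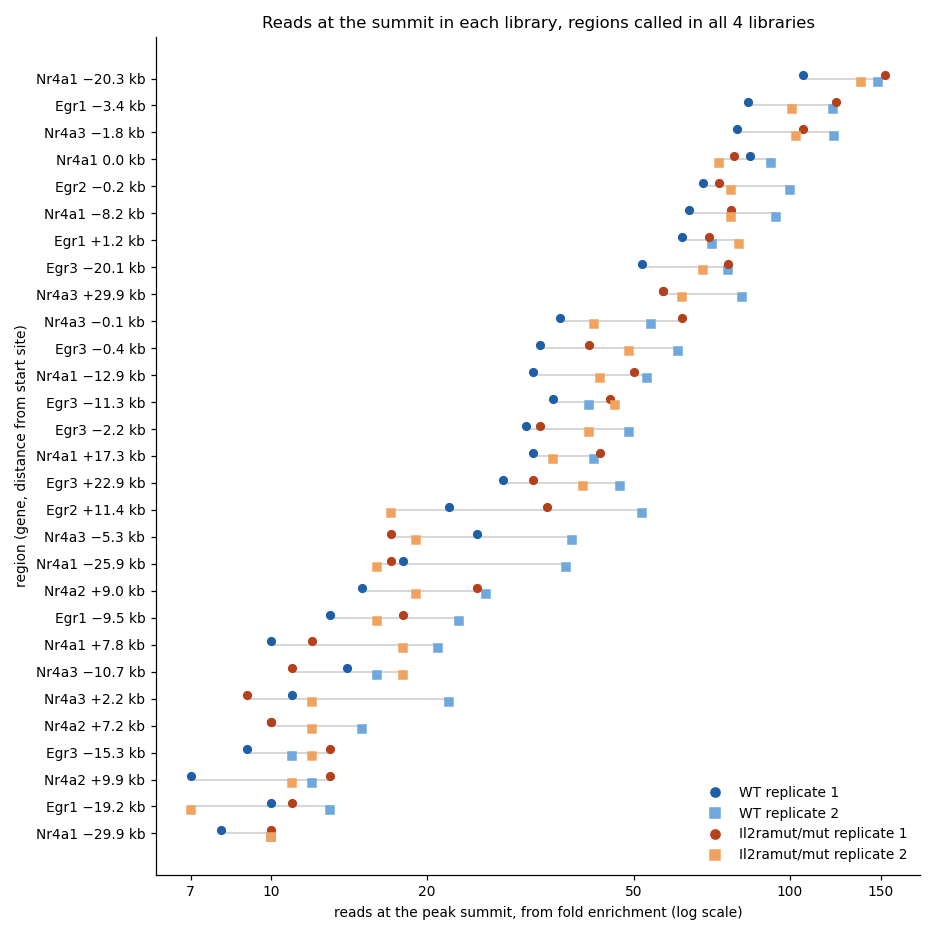
Reads at the peak summit (horizontal axis, log scale), computed from the fold enrichment, in each of the 4 libraries at the 29 regions called in all of them, ordered by their mean (vertical axis: gene and distance from the start site). Blue is WT and orange-red is Il2ramut/mut, circles are replicate 1 and squares replicate 2, and lines span the libraries. Nr4a1 at −20.3 kb is at the top with 106 to 153 reads, WT replicate 1 is the lowest point of many lines, and WT replicate 2 is often the highest.

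By the mean percentile of the start site, the order was Nr4a1 (97.8), Egr2 (97.6), Egr1 (97.1), Nr4a3 (94.7), Egr3 (94.2) and Nr4a2 (86.7), against a median of 41.3 over protein-coding genes, 49.2% of which had a start site region in all 4 libraries. Nr4a1, Egr2 and Egr1 overlapped each other over the libraries, as did Nr4a3 and Egr3. The percentiles of Nr4a2 lay below those of the other 5 genes in all 4 libraries, at 83.2 and 87.7 in WT and 88.3 and 87.7 in Il2ramut/mut.

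The genotypes were compared by the presence of peaks. Called in both WT libraries and in neither Il2ramut/mut library were 3 of the 56 regions, or 5.36%, against 2.7% of all regions of the series. Called in both Il2ramut/mut libraries and in neither WT library were 0, against 3.56%. The 3 regions were at NR4A genes. At −16.5 kb of Nr4a1 (chr15:101250157-101250487) the WT peaks had 9 and 13 reads, with 95% Poisson intervals of 4.12 to 17.1 and 6.92 to 22.2 that cover counting error only. At +1.7 kb of Nr4a1, in intron 1 (chr15:101268405-101268813), they had 8 and 8 reads. At +8.0 kb of Nr4a2, also in intron 1 (chr2:57115798-57116065), they had 7 and 8 reads. The faintest peaks called had 5 reads in either WT library and 6 and 5 in Il2ramut/mut replicates 1 and 2. The median peak had 8 reads in either WT library and 10 and 8 in Il2ramut/mut replicates 1 and 2. In the WT libraries the 3 regions lay at percentiles of 26.6 to 76.7. With counts this low, an absent peak does not show closed chromatin at this depth.

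Of the 13 regions called in 1 library, 8 were in WT replicate 2, 3 in Il2ramut/mut replicate 2, 2 in WT replicate 1 and 0 in Il2ramut/mut replicate 1. Over the series the shares of such regions were 24.4%, 31.7%, 20.3% and 23.7% in the same order. Of the 9 called in 2 libraries, the commonest pair was WT replicate 2 with Il2ramut/mut replicate 2, with 4, against 20.8% of all regions called in 2 libraries. The WT pair had 3, against 16.4%, and the Il2ramut/mut pair had 0, against 21.6%, the highest share of the series. WT replicate 2 held a peak in 49 of the 56 regions, WT replicate 1 in 39, Il2ramut/mut replicate 1 in 33 and Il2ramut/mut replicate 2 in 41. Without WT replicate 1 the regions called in all remaining WT and no Il2ramut/mut libraries were 11 of 54 (20.4%), against 20.2% of all regions, and without WT replicate 2 they were 5 of 48 (10.4%), against 17.8%. Without Il2ramut/mut replicate 1 or 2 they were 4 (7.14%) or 5 (9.43%), against 4.94% and 6.15%. Those called in all remaining Il2ramut/mut and no WT libraries were 1 without either WT library, against 5.84% and 7.43% of all regions. They were 3 (5.36%) without Il2ramut/mut replicate 1 and 0 without replicate 2, against 26.9% and 22.4%.

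The level of the peaks was compared at the 29 regions present in all libraries. By limma on quantile-normalized log2 fold enrichment, 0 of the 29 regions passed a Benjamini-Hochberg adjusted p of 0.05, against 0% of the 38426 regions tested. At an unadjusted p under 0.05 there were 2, or 6.90%, against 8.79% of all regions. With 2 libraries per genotype the test had little reach in a simulation. Of 100 regions simulated with a log2 change of 1 and 100 with a change of 2 among 38426, it called 0 and 0. The simulation took each region's observed spread between replicates as its true spread, so the reach on the real values may differ. The median log2 difference, Il2ramut/mut minus WT, was −0.04 over the 29 regions and 0.00 over all, and 16 of the 29 were lower and 13 higher in Il2ramut/mut. The median over the regions of the 6 genes was −0.12 without scaling, −0.11 without WT replicate 1, −0.09 without Il2ramut/mut replicate 2 and −0.02 without either of the other libraries.

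The largest difference was at −5.3 kb of Nr4a3 (chr4:48039555-48040269), an intergenic OCR with 25 and 38 reads in WT and 17 and 19 in Il2ramut/mut. The WT libraries were the higher ones, and the genotypes did not overlap in reads or percentile. Its log2 difference was −0.78 (SE 0.18, 95% interval −1.23 to −0.32), with an unadjusted p of 0.00673 and an adjusted p of 0.549 by limma. Over the 10 alternative analyses it stayed between −1.07 and −0.65. The −1.07 was a difference in log2 of the −log10 p. On fold enrichment the lowest was −0.89, without Il2ramut/mut replicate 2. The next was at −25.9 kb of Nr4a1 (chr15:101240664-101241323), with 18 and 37 reads in WT and 17 and 16 in Il2ramut/mut. WT replicate 1 was within 2 reads of the Il2ramut/mut libraries there, and WT replicate 2 stood apart. The log2 difference was −0.64 (SE 0.23), with an unadjusted p of 0.0336 and an adjusted p of 0.554 by limma. It was −0.92 without WT replicate 1 and −0.38 without WT replicate 2, the ends of its range over the alternatives.

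Next in size were Nr4a3 at +2.2 kb in intron 1, the Ado start site at +11.4 kb of Egr2 and the Reep2 start site at −19.2 kb of Egr1. Their log2 differences were −0.55 (SE 0.29), −0.52 (SE 0.38) and −0.39 (SE 0.22), with adjusted limma p of 0.625, 0.715 and 0.645. The reads at +2.2 kb of Nr4a3 were 11 and 22 in WT and 9 and 12 in Il2ramut/mut, which overlap. At all 5 of these regions the lower mean was in Il2ramut/mut. Single libraries decided the size of the last 3. Nr4a3 at +2.2 kb ran from −0.26 without Il2ramut/mut replicate 1 and −0.27 without WT replicate 2 to −0.86 without Il2ramut/mut replicate 2 and −0.87 without WT replicate 1. The Ado start site ran from −0.10 without Il2ramut/mut replicate 2 and −0.17 without WT replicate 2 to −0.89 without WT replicate 1 and −0.92 without Il2ramut/mut replicate 1. The Reep2 start site was −0.20 without Il2ramut/mut replicate 2 and −0.60 without Il2ramut/mut replicate 1.

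The 95% intervals of the start sites all included 0. The log2 difference was −0.32 (SE 0.20) at Nr4a1, −0.25 (SE 0.17) at Egr2, −0.08 (SE 0.22) at Egr3, 0.07 (SE 0.21) at Egr1, 0.11 (SE 0.20) at the internal start of Nr4a2 at +9.0 kb and 0.13 (SE 0.22) at Nr4a3. A further annotated Nr4a2 start, at +9.9 kb, had 0.33 (SE 0.24, 95% interval −0.26 to 0.93), the largest positive difference of the 29 regions. The 95% intervals ran from −0.83 to 0.19 at Nr4a1 and from −0.42 to 0.68 at Nr4a3, and no interval of a start site reached a change of 1 log2 unit, while smaller changes lay inside them. The strongest distal OCRs were close to 0, at 0.08 (SE 0.17) for −20.3 kb of Nr4a1, −0.03 (SE 0.17) for −1.8 kb of Nr4a3 and 0.04 (SE 0.18) for −3.4 kb of Egr1. By gene, the median difference was −0.22 over the 6 regions of Nr4a3, of which 5 were lower in Il2ramut/mut, and 0.02 over the 8 regions of Nr4a1.

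**Figure D3:**
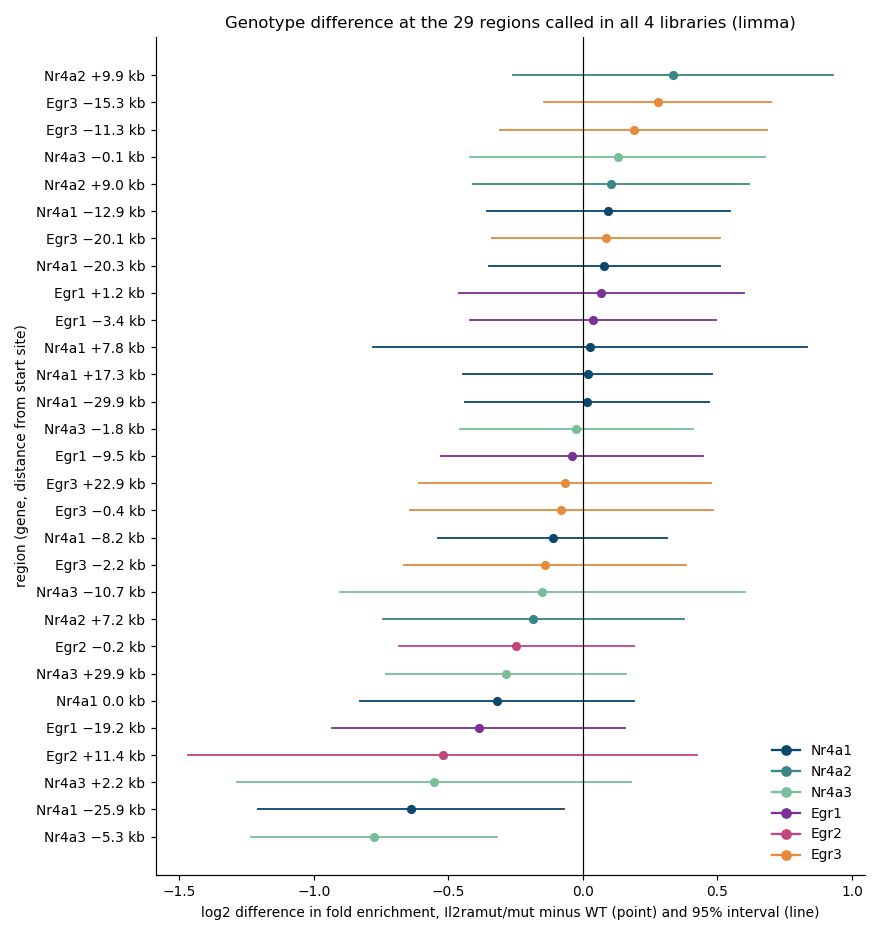
Log2 difference in fold enrichment between the genotypes, Il2ramut/mut minus WT (horizontal axis; point), with its 95% interval from limma (line), for the 29 regions called in all 4 libraries, coloured by gene and ordered by size (vertical axis: gene and distance from the start site). The intervals of Nr4a3 −5.3 kb and Nr4a1 −25.9 kb lie below 0, those of the others include it, and none of the 29 passed adjustment over all regions.

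By rank, the percentiles of the genotypes did not overlap at 12 of the 29 regions. They were higher in both WT libraries at 4 (13.8%), against 12.6% of all regions, and higher in both Il2ramut/mut libraries at 8 (27.6%), against 26.2%. The split at the 6 genes was thus near that of the series. It depended on what the peaks were ranked among. With equal numbers of peaks per library it was 8 higher in WT and 3 higher in Il2ramut/mut, against 20.2% and 19.9% of all regions. Ranked among the regions called in all 4 libraries it was 8 and 4, against 19.4% and 20.4%. With peaks of a −log10 q of at least 3 alone it was 1 and 8 of 27 (3.7% and 29.6%), against 5.19% and 44.2%. Without WT replicate 1 it was 12 and 10 of 30, against 29.7% and 36.6%, and without WT replicate 2 it was 5 and 15 of 30, against 22% and 46.7%. Without Il2ramut/mut replicate 1 it was 6 and 15 of 31, against 23.1% and 49.1%, and without Il2ramut/mut replicate 2 it was 13 and 10 of 30, against 33.4% and 35.9%. The two-sided exact permutation test of 2 against 2 libraries cannot go below p = 0.333, so no single region could pass 0.05.

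Under all 3 rankings, 4 regions were higher in WT and 3 higher in Il2ramut/mut. Higher in WT were Nr4a1 at −25.9 kb, the Nr4a1 start site, Nr4a3 at −5.3 kb and the Reep2 start site at −19.2 kb of Egr1. At the Nr4a1 start site the percentiles were 98.6 and 97.7 in WT and 97.3 and 97.6 in Il2ramut/mut, a gap of less than the spread within WT. Higher in Il2ramut/mut were Nr4a1 at −20.3 kb, the Gm33524 start site at −20.1 kb of Egr3 and Egr3 at −15.3 kb. At −20.3 kb of Nr4a1 the percentiles were 99.26 and 99.33 in WT and 99.49 and 99.44 in Il2ramut/mut. The reads of the genotypes overlapped there and at the Gm33524 start site, as they did at the Reep2 start site. Egr3 at −15.3 kb had 9 and 11 reads in WT and 13 and 12 in Il2ramut/mut, with a log2 difference of 0.28 (SE 0.17) and an adjusted limma p of 0.668. The 4 further regions that were higher in WT under the rankings other than by all peaks were Nr4a1 at −8.2 kb, Nr4a3 at +2.2 and +29.9 kb and the Egr2 start site.

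**Figure D4:**
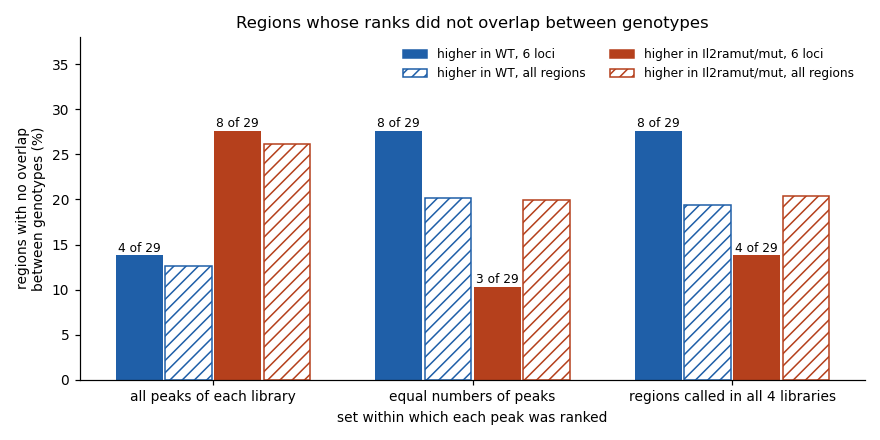
Share of regions in percent (vertical axis) whose ranks did not overlap between the genotypes, for the 29 regions at the 6 genes (filled bars, with counts) and for all regions of the series called in 4 libraries (hatched bars), by the set in which peaks were ranked (horizontal axis). Blue is higher in WT and red higher in Il2ramut/mut; the filled bars turn from 4 and 8 to 8 and 3 or 4 between the rankings, and the hatched bars from 12.6 and 26.2 to about equal shares.

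Genes that act with these factors were described by the same counts. Of the regions at Egr4 and the EGR corepressors Nab1 and Nab2, 11 of 17 were called in all libraries, 2 of them had an unadjusted limma p under 0.05 and 0 passed adjustment. The Egr4 start, named after its values were seen, had percentiles of 62.4 and 43.8 in WT and 85.6 and 87.0 in Il2ramut/mut. The WT percentiles were those of faint peaks, with 9 reads in replicate 1 and 8 in replicate 2. The lowest unadjusted limma p at Egr4 was 0.00267, with a lowest adjusted p of 0.549. Cblb, among the targets below, had a lower unadjusted limma p, 0.00233, and the same lowest adjusted p. Of the factors upstream of the 2 families (Srf, Elk1, Elk3, Elk4, Mef2a, Mef2c, Mef2d, Creb1, Crem, Nfatc1, Nfatc2 and Nfatc3), 70 of 150 regions were called in all libraries, 3 had such a p and 0 passed. Of 12 targets and feedback genes of TCR activation (Cblb, Itch, Rnf128, Dgka, Dgkz, Cd69, Dusp2, Dusp5, Ier2, Tnfrsf9, Lag3 and Pdcd1), 83 of 158 were called in all, 9 had such a p and 0 passed. At the AP-1 genes it was 39 of 74, with 2 and 0. In the order of these lists, 18.2%, 4.29%, 10.8% and 5.13% of the regions called in all libraries had such a p. Over all regions of the series called in all libraries it was 8.79%. The median log2 differences of these lists were 0.11, 0.01, −0.12 and 0.06, against −0.04 at the 6 genes. All 12 upstream factors and all 12 targets had a peak within 1 kb of a start in 4 libraries, as did 8 of the 9 AP-1 genes.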

How the data were processed

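ATAC-seq of LN Treg cells was available as 4 peak lists, 2 per genotype, and per the labels each genotype had 2 mice. Per the labels and the methods, the authors trimmed reads (Trim Galore 0.3.7), aligned them to mm10 with BWA mem 0.7.13 and SAMtools 0.1.19, and removed duplicates (Picard 1.92) and mitochondrial reads. They kept concordant pairs, shifted read 1 and used MACS2 2.1.0 to call narrow peaks, without pooling the replicates. The deposited columns are the fold enrichment at the summit (a ratio to the background), its −log10 p, its −log10 q, a score that is 10 times the −log10 q, and the summit position. The study's IDR step was not applied.

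Peaks were merged over the libraries and placed on GENCODE genes of GRCm38 in Python (3.11.15, pandas 2.3.3). The highest peak of a library stood for a region. Reads were recovered from the fold enrichment, and each peak was ranked by its −log10 p. Regions called in 4 libraries were tested with limma 3.58.1 (R 4.3.3) on quantile-normalized log2 fold enrichment, 2 against 2, with Benjamini-Hochberg adjustment over 38426 regions, and with no filter or pseudocount. A region called in fewer libraries has no value and was described by its calls. Both steps were tested on simulated data. The precision is set by the reads at a summit and by the 2 libraries per genotype, and p-values measure the spread between these libraries. Separate dates or batches are not in the sources used here.

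Regions were named by rule: the start site regions of each gene, its highest other region, regions called in one genotype only and the 5 largest limma differences. Others named were chosen after their values were seen. A marker gene and the sequence of 1 region are not reported here. The genes, lists and motif words were chosen with earlier results of these data known. Alternatives were a 10-kb window, a 50% overlap, equally long peak lists, only peaks with a −log10 q of 3 or more, another ranking, 2 other scalings, log2 of the −log10 p, a replicate block, a variance trend (chosen after seeing the data) and leaving out each library.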

Additional observations from a re-analysis of the deposited data

How the results depend on the processing

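The number of regions at the 6 genes (44 to 59), those called in all libraries (21 to 31) and the 0 limma calls stayed on their side or within 1.5 times under every alternative run, as did the regions called only in WT (2 or 3) apart from leaving out a library. The counts without overlap in percentile, 4 higher in WT and 8 higher in Il2ramut/mut, moved most. They were 2 and 5 in a 10-kb window, 1 in WT with peaks of a −log10 q of at least 3, 8 and 3 with equal numbers of peaks and 8 and 4 when ranked among regions called in all 4 libraries. Leaving out each library gave 5 to 13 higher in WT and 10 to 15 higher in Il2ramut/mut. It gave 4 to 11 regions called in WT alone and 0 to 3 called in Il2ramut/mut alone. In these runs 1 library of a genotype was set against 2 of the other, which separate more easily than 2 against 2. The limma calls over all 38426 regions were 0 under each alternative except without scaling, with 18, none of them at the 6 genes. The signs of Nr4a3 −5.3 kb, Nr4a1 −25.9 kb, Nr4a3 +2.2 kb, the Nr4a1 and Egr2 start sites, Nr4a1 −20.3 kb and Egr3 −20.1 kb held under all 10 alternatives, and those of the start sites of Nr4a2, Nr4a3, Egr1 and Egr3 turned under 1 or 2. The median log2 difference of all regions lay between −0.04 and 0.02 under every alternative. The reads at the summit, 5 to 13 in the faint regions, limit what an absent peak shows.

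The genotypes share replicate numbers, but the labels give 2 mice per genotype and no source ties a number to a shared litter, batch or day. The deviations of same-numbered libraries from their group means had a correlation of 0.014 over the regions called in all 4 libraries. With a replicate block, both same-numbered pairs were lower in Il2ramut/mut at 9 regions and higher at 11, against 19% and 38.3% of all regions, and limma called 0 regions.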

Other observations

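Regions called in 2 or 3 libraries had no value in the others and were not compared between genotypes by level. An Nr4a1 region at −10.6 kb had 11 and 20 reads in WT, 8 in Il2ramut/mut replicate 2 and no peak in Il2ramut/mut replicate 1. A region in intron 3 of Nr4a3, at +8.4 kb, had 12 reads in WT replicate 1 and 11 and 10 in Il2ramut/mut, with no peak in WT replicate 2. A region at +19.3 kb of Egr3 lacked a peak in WT replicate 1 and had 9, 11 and 10 reads in the others, and its summit window held an AP-1 word, TGAGTCA, and a CTCF word. Each of these 3 was missing from a different library. A STAT word, TTCCTAGAA, lay in the window of the Egr2 region at +1.2 kb, which had 11 reads in WT replicate 2 and 10 in Il2ramut/mut replicate 2 and no peak in the other libraries. The STAT word of the Nr4a1 region at −8.2 kb was TTCCAGGAA, and that region was called in all 4 libraries, with a log2 difference of −0.11 (SE 0.17) and an adjusted limma p of 0.865. Among the Treg and CD4 T cell markers, 9 of 71 regions called in all libraries had an unadjusted limma p under 0.05, or 12.7%, against 8.79% of all regions, and 0 passed adjustment. Among the markers of other cells it was 6 of 32, or 18.8%, and 0 passed; their part in the differences at the 6 genes was not tested.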
